A study of Mus musculus with 14 samples.

Results

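A group of 2095 NANOG peaks in mouse embryonic stem (ES) cells is described here. They were strong, lay away from promoters and had no peak of OCT4, MED1, MED12 or SIM2 at the same place. The members were selected on their measured values, from the 14815 peaks of 1 NANOG ChIP-seq library (14.1%). A member had a normalized tag count of at least 8.5, a centre outside the window from 1000 bp upstream to 300 bp downstream of any protein-coding transcription start in mm9, and no peak of the OCT4, MED1 or MED12 list or of the 3 SIM2 lists within 100 bp. The normalized tag count is the peak caller's measure of the reads at a peak, scaled to the size of the library. It is not the same quantity as the total tags deposited beside it.

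NANOG is a homeodomain transcription factor of pluripotent cells. In ES cells it shares many enhancers with OCT4 and SOX2, which bind DNA side by side at composite elements, and such enhancers recruit Mediator, the complex of which MED1 and MED12 are subunits and which connects bound factors with RNA polymerase II. Homeodomains read short sequences around a TAAT core, and POU factors such as OCT4 read the octamer.

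The NANOG, OCT4, MED1 and MED12 ChIP were each done once in clone A6, a single ES cell clone with a Sim2-FLAG transgene driven by a tetracycline-regulated promoter of the ROSA-TET system, and all cells were grown without tetracycline for 26 h. SIM2 is a bHLH-PAS transcription factor and was precipitated through its FLAG tag in the clones A6, B8 and C4, 1 library each. The same FLAG ChIP in the EB3 parental line, which lacks the transgene, served as control. All NANOG peaks therefore come from cells that overexpress SIM2, with 1 library and 1 input, and peaks of a library are not replicates: the tests below compare classes of peaks within these libraries. ChIP of SOX2 was not analysed here.

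The strongest members are shown first, since they give the letters under the highest NANOG signals without a partner. Each line gives the gene whose intron holds the peak or else the gene with the nearest protein-coding start, the position of the peak in mm9 and its 167 bases 5′ to 3′ on the plus strand. Matches on either strand to any of 14 short patterns of ES cell factors, listed further on, are in capitals.
Sfi1 intron, chr11:3045590-3045756: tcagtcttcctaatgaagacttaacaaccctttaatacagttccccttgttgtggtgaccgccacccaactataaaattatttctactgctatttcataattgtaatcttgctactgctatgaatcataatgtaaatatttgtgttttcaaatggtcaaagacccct
Fyb intron, chr15:6578669-6578835: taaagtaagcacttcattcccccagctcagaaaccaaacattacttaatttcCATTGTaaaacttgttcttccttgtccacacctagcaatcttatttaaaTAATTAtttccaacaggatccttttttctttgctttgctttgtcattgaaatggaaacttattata
4930548G14Rik intergenic, chr15:45918999-45919165: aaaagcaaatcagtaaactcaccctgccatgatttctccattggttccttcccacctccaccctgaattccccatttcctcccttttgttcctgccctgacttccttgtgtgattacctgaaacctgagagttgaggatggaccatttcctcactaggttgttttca
Stk35 intergenic, chr2:129624219-129624385: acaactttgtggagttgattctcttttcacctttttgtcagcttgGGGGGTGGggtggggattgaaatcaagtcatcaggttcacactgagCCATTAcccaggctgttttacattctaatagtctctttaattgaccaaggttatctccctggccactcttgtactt
Fam84b intergenic, chr15:60671476-60671642: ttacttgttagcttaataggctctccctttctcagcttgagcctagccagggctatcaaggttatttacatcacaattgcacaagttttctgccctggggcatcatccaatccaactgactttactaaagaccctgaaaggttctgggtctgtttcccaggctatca
Dlgap3 intron, chr4:126904634-126904800: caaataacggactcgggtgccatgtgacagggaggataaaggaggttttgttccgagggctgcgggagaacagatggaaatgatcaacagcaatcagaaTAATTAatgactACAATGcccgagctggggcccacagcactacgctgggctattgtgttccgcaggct

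Of these 6 sequences, 3 held no match at all. The Sfi1 sequence is among them, and its peak lay at only 4.39 times the input, which held 26 tags there. The Fyb and Dlgap3 members each held the SOX pattern and the palindromic homeobox pattern TAATTA, and the Stk35 member held the NANOG core TAATGG, here read on the minus strand as CCATTA, beside a KLF pattern.

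The next 5 sequences are the members with the highest tag counts that held a pattern whose share differed between members and partner-bound peaks, and the strongest member of a family of similar sequences described further on. The strongest holder of the NANOG core is the Stk35 member above.
Octamer, Gtf2a1 intron, chr12:92822036-92822202: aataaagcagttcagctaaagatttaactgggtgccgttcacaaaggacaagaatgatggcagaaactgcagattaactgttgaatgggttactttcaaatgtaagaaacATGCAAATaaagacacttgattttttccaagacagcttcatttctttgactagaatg
Composite, Gucy1a2 intron, chr9:3563096-3563262: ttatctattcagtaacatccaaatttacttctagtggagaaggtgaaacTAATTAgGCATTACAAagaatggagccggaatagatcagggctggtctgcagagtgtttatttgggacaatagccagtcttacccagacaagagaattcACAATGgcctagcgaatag
ZIC-type, Dnajb9 intergenic, chr12:44305663-44305829: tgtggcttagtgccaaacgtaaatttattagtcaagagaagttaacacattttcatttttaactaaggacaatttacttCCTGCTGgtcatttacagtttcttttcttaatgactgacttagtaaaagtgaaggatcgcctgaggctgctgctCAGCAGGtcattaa
TEAD, Coil intergenic, chr11:88829844-88830010: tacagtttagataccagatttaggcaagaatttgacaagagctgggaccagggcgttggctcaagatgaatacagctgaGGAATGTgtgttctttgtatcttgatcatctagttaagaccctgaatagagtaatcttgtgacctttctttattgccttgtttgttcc
ZIC-type and TEAD, Mmp16 intergenic, chr4:17019380-17019546: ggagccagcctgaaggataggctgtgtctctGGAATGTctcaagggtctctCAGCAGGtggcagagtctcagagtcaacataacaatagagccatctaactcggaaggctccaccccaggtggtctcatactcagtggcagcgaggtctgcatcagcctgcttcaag

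The members had a median tag count of 10.1 (interquartile range 9.3 to 12.4) and reached 49.6. They held a median of 25 total tags (12 to 126) and lay at a median of 11.1 times the input (4.04 to 33.2). The tag count chose the members and the other values come from the same library, so all are a description. At the threshold, 437 members had exactly 8.5, and 632 otherwise eligible peaks had 7.7, the next lower step. Among the first of these by position, those with 8.5 were near Tcea1 (20 total tags) and Prdm14 (15 total tags). Those with 7.7 were near Npbwr1 (27 total tags), Pcmtd1 (18 total tags) and A830018L16Rik (19 total tags), so the total tags of peaks on both sides of the threshold overlapped. Tag counts rose in steps of 0.774, and the minimum of 8.5 is 11 such steps. If 1 step is 1 tag, HOMER's default scale of 10 M (megatags) corresponds to 12.9 M tags in the library. In these steps the normalized tag count was a median of 0.504 of the total tags of the same peak over all NANOG peaks. The sources used here do not say which tags it leaves out, so the minimum cannot be read as a number of total tags.

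**Figure D1:**
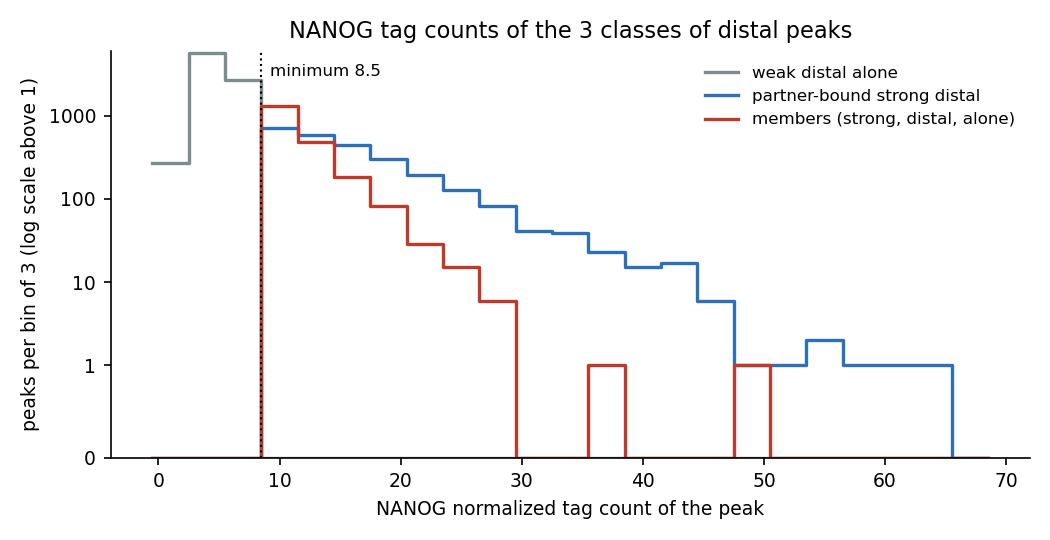
Number of NANOG peaks (y axis, logarithmic above 1) by normalized tag count (x axis, in bins of 3) for the 2095 members, the 2601 partner-bound strong distal peaks and the 8588 weak distal peaks alone. The dotted line marks the minimum of 8.5, and the members thin out faster than the partner-bound peaks, with 2 members at 30 or more against 148 partner-bound peaks.

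Members were compared with 2 other classes of NANOG peaks. The partner-bound class held the 2601 strong distal NANOG peaks with at least 1 of the other 6 lists within 100 bp, of which 74.7% had OCT4, 57.3% a SIM2 list and 30.8% MED1 or MED12. The weak class held the 8588 distal NANOG peaks alone below the minimum. Being alone went with a low tag count. Of the strong distal peaks, 65.9% were alone between 8.5 and 10, 50.5% between 10 and 15, 25.5% between 15 and 20, 12.3% between 20 and 30 and 1.33% from 30 on. The other lists were shorter than the NANOG list, with 631 to 2532 peaks each, and only a called peak counts as a partner. When only partner peaks at 8 or more times the input were counted, 3917 NANOG peaks met the rule.

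The 10 strongest members reached back to 25.6, where 5 members were tied, which makes 14. The member in an intron of Sfi1, a gene for a centrin-binding protein, had the highest tag count, 49.6, and lay at 4.39 times the input, which held 26 tags there. The Fyb member followed with 37.2 and 13.1 times the input. The intergenic member 1951 bp upstream of Stk35, a kinase gene, reached 29.4 and 33.2 times the input, with 2.2 input tags. The intergenic members near 4930548G14Rik (29.4) and Fam84b (28.7), the member in an intron of Dlgap3 (28.7), a gene for a synaptic scaffold protein, and the member far from any gene near Svip (27.9) were 19.9, 30.4, 23.1 and 22.4 times the input. The member in an intron of 1300010F03Rik reached 27.1 and 15.3 times the input. The member in an intron of Kctd16, which encodes an auxiliary subunit of GABA-B receptors, had 26.3 with 29.5 input tags and 4.27 times the input. The Sfi1 and Kctd16 members thus stood apart from the other 12 by their input. Of the 5 members at 25.6, 3 lay in introns of Vps41, Lrpprc and Tnrc6c and 2 were intergenic near Hoxb1 and Ndufs4, at 19.6 to 27.7 times the input. The Ndufs4 member had a SIM2 peak of clone C4 502 bp away. An input above 4.4 tags, over 2 times the lowest value of the list, was found at 22 of the 2095 members (1.05%), at 0.5% of partner-bound peaks and at 0.0349% of weak peaks. The weak share is held down by the peak calling. All weak peaks lay at 4.04 or more times the input with a median of 12 total tags, so few could hold such an input. What this input signal adds to the tag counts was not tested.

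Most members were intergenic (1213, 57.9%) or intronic (828, 39.5%), and 28 (1.34%) were exonic. The members were more often intronic than the partner-bound peaks (39.5% against 35%, odds ratio 1.21, 95% interval 1.08 to 1.37, adjusted p = 0.00424 by Fisher's exact test) and less often intergenic (57.9% against 62.7%, odds ratio 0.817, 0.726 to 0.919, adjusted p = 0.00256 by Fisher's exact test). An odds ratio above 1 means a higher odds in the members, and the p-values were adjusted over the 30 tests of this kind. Neither call held when only partner peaks at 8 or more times the input were counted, where the intronic odds ratio was 1.11 (adjusted p = 0.253 by Fisher's exact test) and the intergenic 0.895 (adjusted p = 0.247 by Fisher's exact test). Against the weak peaks, 58.8% of which were intergenic, the odds ratio was 0.962 (0.873 to 1.06, adjusted p = 0.536 by Fisher's exact test). The median distance to the nearest protein-coding start was 36.8 kb for members, 32 kb for partner-bound and 37.1 kb for weak peaks. A start lay within 100 kb of 72.5% of members and of 74.9% of partner-bound peaks, a difference that did not pass the test (odds ratio 0.88, 0.772 to 1, adjusted p = 0.0911 by Fisher's exact test).

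Several sequence elements of pluripotency factors were more frequent in the members than in the sequence around them. Windows of the same length taken 10 kb to either side of each member, 4190 in all, gave the local level. The patterns were searched as exact letters on both strands of the 167 bases. The octamer ATGCAAAT, the site of POU factors such as OCT4, was found in 5.58% of members and 1.38% of the side windows. The SOX-OCT composite TTGTNATGC, where N is any base, was found in 6.25% and 0.668%, and the SOX pattern CATTGT in 21.8% and 9.14%. The composite can share the letters TTGT with a SOX match. The homeobox patterns TAATGG and TAATTA were found in 12.7% and 13.4% of members, against 7.11% and 6.23% of side windows. The ZIC-type pattern CCTGCTG was at 14.7% and 3.48%, and the ESRRB pattern CAAGGTCA, the site of an orphan nuclear receptor of naive pluripotency, at 4.58% and 1%. At least 1 of the 14 patterns was found in 1374 members (65.6%) and in 37.2% of side windows. These windows are a description of the surroundings, and no test was run against them.

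Compared with the partner-bound peaks, members had fewer POU sites and more NANOG cores. The rule kept OCT4 peaks out of the members, while 74.7% of partner-bound peaks had one within 100 bp. The difference in POU sites is therefore not independent of how the classes were chosen. Of the 14 patterns, 5 differed after adjustment over the 28 tests of patterns. The octamer was less frequent in members (5.58%, 95% interval 4.68 to 6.65, against 8.19%, 7.2 to 9.31, odds ratio 0.663, adjusted p = 0.0031 by Fisher's exact test), as was the composite (6.25%, 5.29 to 7.37, against 9%, 7.96 to 10.2, odds ratio 0.675, adjusted p = 0.0031 by Fisher's exact test). The TEAD pattern GGAATGT, the site of the factors at the end of the Hippo pathway, was at 3.01% against 4.58% (odds ratio 0.647, adjusted p = 0.0243 by Fisher's exact test), a call that was lost without the SIM2 library of clone A6 (0.708, adjusted p = 0.087 by Fisher's exact test). The NANOG core TAATGG was more frequent (12.7%, 11.3 to 14.2, against 10.1%, 9.05 to 11.4, odds ratio 1.29, adjusted p = 0.0248 by Fisher's exact test), and so was the ZIC-type pattern (14.7% against 12%, odds ratio 1.26, adjusted p = 0.0288 by Fisher's exact test). The SOX pattern stood at 21.8% and 22.3% (odds ratio 0.974, 0.848 to 1.12). TAATTA had an odds ratio of 1.1 (0.93 to 1.31) and the KLF pattern GGGNGTGG of 1.03 (0.815 to 1.3), and neither passed. The bHLH-PAS core ACGTG, read by SIM2 with its partner, was in 3.44% of members, 4.65% of partner-bound peaks and 6.56% of side windows. Its difference between the classes did not pass (odds ratio 0.729, 0.544 to 0.984, adjusted p = 0.104 by Fisher's exact test). It did pass, lower in members, under several alternatives given further on, and not under the others. The rule also kept SIM2 peaks out of the members, while 57.3% of partner-bound peaks had a SIM2 list. This difference is therefore not independent of how the classes were chosen. In the main comparison the remaining patterns did not pass either. They were that of ESRRB, that of STAT factors with the letters TTCCNGGAA, that of ETS factors with CCGGAAGT, that of GATA factors with AGATAAG, and a CTCF-type pattern with CCAGNGGGC. With partner peaks limited to 8 or more times the input only the octamer of these 5 still passed (odds ratio 0.692, adjusted p = 0.0444 by Fisher's exact test). The composite was then at 1.01, the NANOG core at 1.12 (adjusted p = 0.549), TEAD at 0.771 (adjusted p = 0.4) and the ZIC-type pattern at 1.2 (adjusted p = 0.344), all by the same Fisher's exact test. At a tag count minimum of 12, with 621 members, the composite alone passed among these 5 (odds ratio 0.526, adjusted p = 0.0141 by Fisher's exact test).

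Compared with the weak peaks, members were richer in composites (6.25% against 3.59%, odds ratio 1.79, 1.46 to 2.22, adjusted p = 4.3e-06 by Fisher's exact test), in NANOG cores (12.7% against 9.86%, odds ratio 1.33, 1.15 to 1.54, adjusted p = 0.00225 by Fisher's exact test), in SOX patterns (21.8% against 18.2%, odds ratio 1.25, 1.11 to 1.41, adjusted p = 0.00225 by Fisher's exact test) and in ZIC-type patterns (14.7% against 12.1%, odds ratio 1.24, 1.08 to 1.43, adjusted p = 0.0108 by Fisher's exact test). The octamer was at 5.58% and 5.51% (odds ratio 1.01, 0.827 to 1.25). The SOX odds ratio was 0.993 at a minimum of 12, and the composite did not pass there (1.24). Some peaks have a similar sequence at another NANOG peak, a copy, as described further on. Without such peaks the composite (1.2, adjusted p = 0.492) and the ZIC-type pattern (1.18, adjusted p = 0.165) did not pass by Fisher's exact test. In 300 bp around the centre the NANOG core passed neither against the weak peaks (1.12, adjusted p = 0.214 by Fisher's exact test) nor against the partner-bound peaks (1.15, adjusted p = 0.228 by Fisher's exact test).

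**Figure D2:**
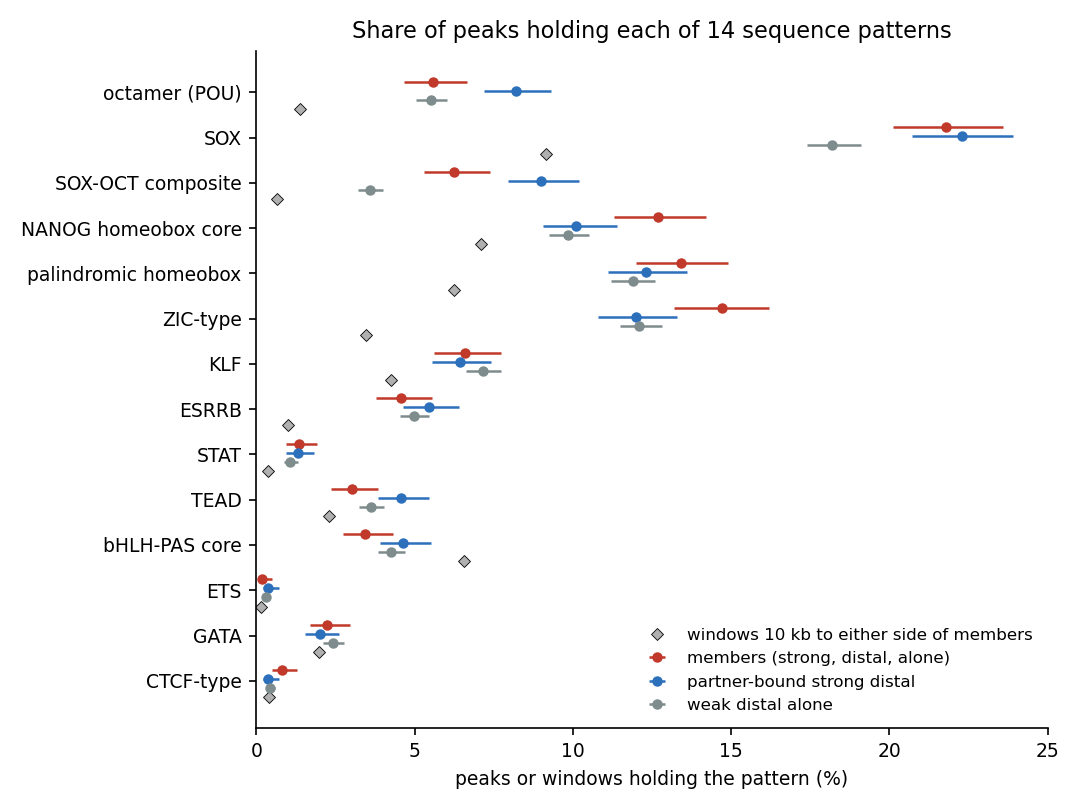
Share of peaks (x axis, percent) that hold each of 14 sequence patterns (y axis) in the 167 bases of the peak. Circles are the members, the partner-bound strong distal peaks and the weak distal peaks alone, with 95% Wilson intervals, and diamonds are the windows beside the members, where the composite is at 0.668% against 6.25% of members.

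Among the members themselves the NANOG core was more frequent at higher tag counts. It was held by 9.79% (7.93 to 12) of the 807 members between 8.5 and 9.3, by 14.4% (12.4 to 16.7) of the 1028 between 10.1 and 14.7 and by 15% (11.2 to 19.8) of the 260 from 15.5 on. In the partner-bound peaks of the same bands it was at 6.46% (4.48 to 9.23), 9.72% (8.04 to 11.7) and 11.8% (10.1 to 13.8). These shares were below those of the members, but the intervals overlapped in the lowest and highest bands. The composite showed no such order in members, with 5.7%, 7.39% and 3.46%, and the octamer was at 5.2%, 6.23% and 4.23%. Within groups of like tag count the odds ratio of the NANOG core between members and partner-bound peaks was 1.51, which passed the Mantel-Haenszel test, against 1.29 over all peaks. That of the ZIC-type pattern was 1.15 and no longer passed the same test, against 1.26 over all peaks.

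The matches of several patterns gathered at the peak centres. In the 300 bp around the centres of the members, 41% of the 161 composite matches lay within 30 bp of the centre, and the median distance was 37 bp. For the octamer these values were 35.4% of 175 matches and 42.5 bp. This was not particular to members. Within 30 bp lay 42.6% of composite and 37% of octamer matches in partner-bound peaks, and 37.2% and 29.8% in weak peaks. Of the 426 NANOG core matches 29.3% lay within 30 bp, with a median of 54.5 bp, against 27.2% and 62.5 bp in the partner-bound peaks and 25.1% and 65.5 bp in the weak peaks. The KLF pattern was not centred, with 13.1% of 312 matches within 30 bp and a median of 84.5 bp in members. Its share within 30 bp was 12.6% in partner-bound and 18.9% in weak peaks. The NANOG core of members reached 22.9 matches per 1000 peaks in the central 20 bp. It was at 9.07 in the bin 150 to 130 bp from the centre toward lower coordinates and at 7.16 in the opposite bin.

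**Figure D3:**
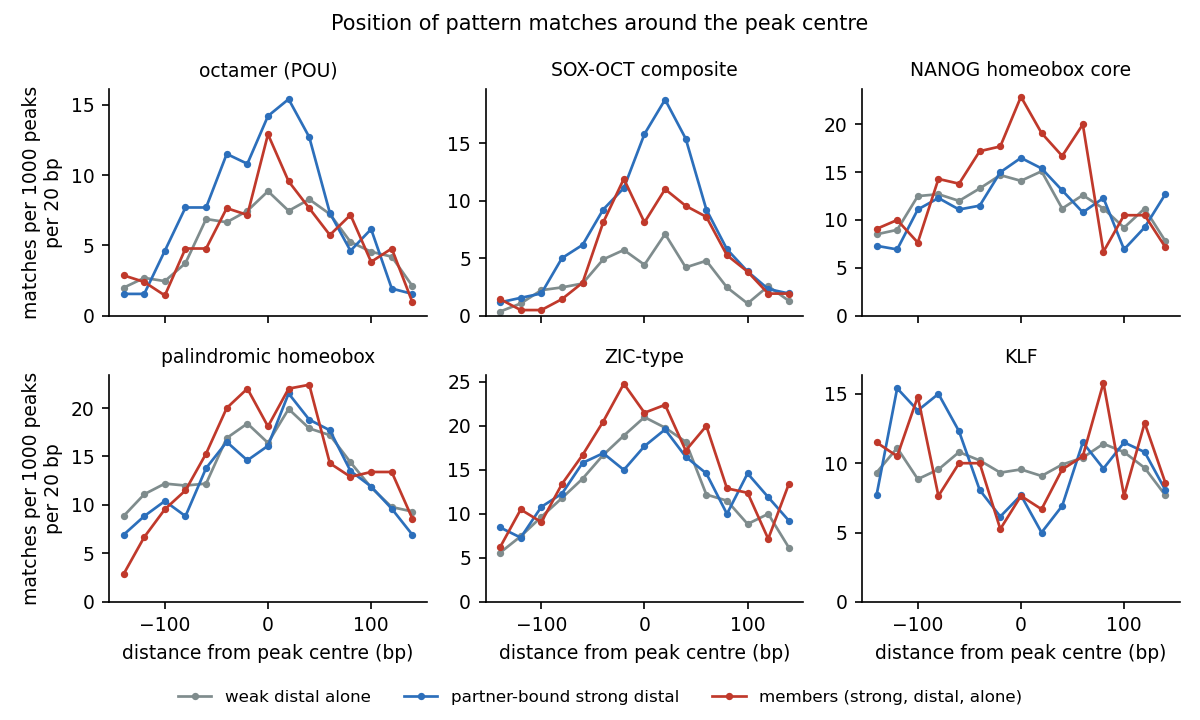
Matches per 1000 peaks and 20 bp (y axis) by distance from the peak centre in bp (x axis) for 6 patterns, with 1 line for each class. In members the NANOG core reaches 22.9 and the octamer 12.9 in the central bin, and the KLF pattern 7.64.

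All 2080 words of 6 bases were tested in the same way, each counted together with its reverse complement, so that no pattern had to be chosen. Against the partner-bound peaks 14 words were more frequent in members (0.673% of those tested) and 11 less frequent (0.529%). The 5 higher words with the lowest p were CATCAA (13.9% of members against 9.8%, adjusted p = 0.00922 by Fisher's exact test), ATCAAC (8.21% against 5.23%), AGCCAT (14.8% against 10.9%), AGTAAT (11.4% against 7.92%) and GATCAA (9.55% against 6.46%). Of these, 3 share the letters ATCAA. The lower words were led by TATGCA (10.9% against 15.9%, adjusted p = 0.00177 by Fisher's exact test), followed by AAAAGG (18.9% against 24.2%), AATGCA (14.5% against 19.1%), CAGGTC (4.77% against 7.8%) and AAATTC (13.8% against 18.2%). TATGCA and AATGCA share the letters ATGCA with the octamer. In 100 bp around the centre, 2 words differed.

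Against the weak peaks 56 words were more frequent (2.69%) and 74 less frequent (3.56%). The higher words with the lowest p were CTATTC (15.1% against 10.3%, adjusted p = 3.2e-07 by Fisher's exact test), CAATAG (16.4% against 11.7%), ACAAAG (33.6% against 27.7%), CAGTAG (10.5% against 7.22%) and ATTCAG (19.9% against 15.5%). ACAAAG is the core that SOX and TCF factors share. All of these higher words except CAGTAG also occur in the Gucy1a2 sequence above. That sequence is the strongest of the largest family of similar sequences described further on. Peaks that aligned to this family made up 5.16% of members and 1.98% of weak peaks. How much of the difference in these words comes from such copies was not tested. The lower words with the lowest p were AAAAAT (12.9% against 21.1%, adjusted p = 2.8e-15 by Fisher's exact test), AAAAAA (13.9% against 21.3%), AAAATA (14.9% against 22.4%), AAATAT (8.4% against 14%) and TAAAAA (16.8% against 23.7%), all of A and T alone. Of the 36 words made of A and T alone, 26 were less frequent in members and none more frequent. Without the peaks that have a sequence copy, 62 words differed from the weak peaks in all. Whether the words named here were among them is not reported.

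The median G+C content was 42.5% in members (interquartile range 38.9 to 46.1), 43.1% in partner-bound peaks and 42.5% in weak peaks (37.1 to 46.7). A G+C content above 42.5%, the median of all NANOG peaks, was found in 48% of members and 50.7% of partner-bound peaks, which did not pass (odds ratio 0.898, 0.8 to 1.01, adjusted p = 0.0982 by Fisher's exact test), but within groups of like tag count the odds ratio was 0.742 and passed the Mantel-Haenszel test. CpG-rich peaks, with an observed over expected CpG ratio above 0.6, were few, at 2.05% of members, 1.88% of partner-bound and 3.18% of weak peaks, and the members had fewer than the weak peaks (odds ratio 0.638, 0.466 to 0.891, adjusted p = 0.016 by Fisher's exact test).

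Almost 1 in 5 members had a relative elsewhere in the list. Of the members, 409 (19.5%) aligned to another NANOG peak at 80% identity or more over 100 bp or more, against 19.6% of partner-bound peaks (odds ratio 0.992, 0.858 to 1.15) and 14.3% of weak peaks (odds ratio 1.45, 1.28 to 1.64, adjusted p = 4.1e-08 by Fisher's exact test). Short reads from such copies are hard to place, so their tag counts are uncertain. In the mouse genome many sites of OCT4 and NANOG lie in interspersed repeats of retroviral origin. No repeat annotation was used here, and the families are named by their sequences only. Linked by these alignments, 343 members fell into 30 families.

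The largest family held 108 members on 20 chromosomes, with a median identity of 86.5% between aligned pairs and tag counts of 8.5 to 20.1 (median 10.8). Of its members, 80 held the SOX-OCT composite, 80 held TAATTA, 67 held both and 57 the SOX pattern, and the Gucy1a2 sequence above is the strongest of them. That sequence carries TAATTA next to the composite, here read on the minus strand, with 1 base between the matches. The family thus held 61.1% of all composites of the members, and outside it the composite was in 2.57% of members. It held 1 NANOG core and no octamer. Peaks that aligned to this family made up 5.16% of members, 4.81% of partner-bound and 1.98% of weak peaks, so similar sequences were found with and without a partner peak. Of the 108 members 89 (82.4%) were intergenic.

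The second family held 74 members on 18 chromosomes (median identity 84.1%, tag counts 8.5 to 22.5). In it, 54 members held the ZIC-type pattern, 18 the ESRRB pattern and 7 the TEAD pattern, and the Mmp16 sequence above, 22.5 and 21.7 times the input, is its strongest. It held 17.6% of the ZIC-type patterns of the members. The third family, 38 members on 16 chromosomes with tag counts of 8.5 to 20.9, held few of the patterns, with SOX and KLF in 5 each.

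Members with and without a copy differed in what they carried. The composite was in 21% of the 409 members with a copy and in 2.67% of the 1686 without, and TAATTA in 25.2% and 10.5%. The NANOG core had the opposite order, at 2.69% and 15.1%, as had the octamer, at 2.93% and 6.23%. The partner-bound peaks split in the same directions, with the composite in 24.1% and 5.31% and the NANOG core in 4.11% and 11.6%. When peaks with a copy were left out of all classes, the composite differed more from the partner-bound peaks (odds ratio 0.489, adjusted p = 0.000685 by Fisher's exact test) and no longer differed from the weak peaks (1.2, adjusted p = 0.492 by Fisher's exact test). The NANOG core was still more frequent than in partner-bound peaks (odds ratio 1.35, adjusted p = 0.0116 by Fisher's exact test) and in weak peaks (1.46, adjusted p = 5.3e-05 by Fisher's exact test). The ZIC-type pattern passed in neither comparison then (1.14 and 1.18).

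**Figure D4:**
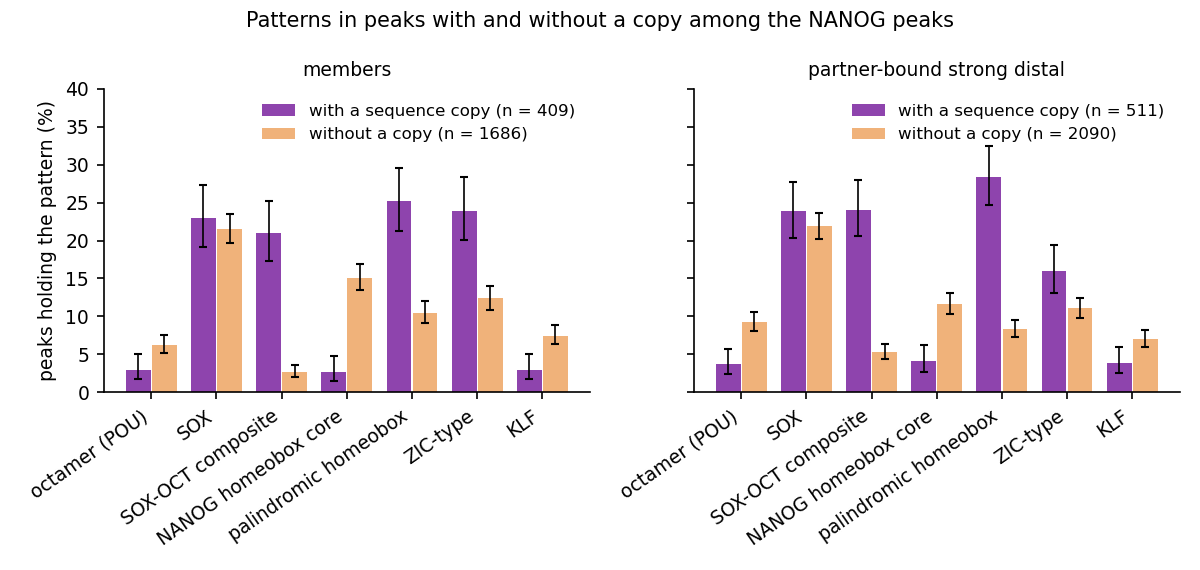
Share of peaks (y axis, percent) holding 7 of the patterns, split by whether the peak has a sequence copy among the NANOG peaks, for members (left) and partner-bound peaks (right), with 95% Wilson intervals. In members the composite is at 21% with a copy and 2.67% without, and the NANOG core at 2.69% and 15.1%.

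Beyond the 100 bp used to choose them, members still had fewer partners in the neighbourhood than the partner-bound peaks. The same 6 lists set the classes, members by lacking their peaks and partner-bound peaks by having at least 1. The gap is therefore not independent of the rule. A peak of any of the 6 other lists lay beyond 100 bp and within 10 kb of 309 members (14.7%, 13.3 to 16.3), against 23.2% (21.6 to 24.9) of partner-bound peaks (odds ratio 0.572, 0.492 to 0.666, adjusted p = 3.4e-12 by Fisher's exact test). The gap was found for each list. OCT4 was near 7.68% against 12.4% (odds ratio 0.587, adjusted p = 4.2e-07 by Fisher's exact test), MED1 near 2.86% against 6.96% (0.394, adjusted p = 7.6e-10) and MED12 near 4.3% against 9.84% (0.411, adjusted p = 3.4e-12). SIM2 of clone A6 was near 7.68% against 14% (0.512, adjusted p = 5.7e-11), of clone B8 near 5.78% against 10.1% (0.545, adjusted p = 2.7e-07) and of clone C4 near 1.38% against 2.54% (0.539, adjusted p = 0.016), all by the same Fisher's exact test. The result for clone C4 was lost under 6 of its 18 alternatives. Against the weak peaks the share was higher in members (14.7% against 12.6%, odds ratio 1.2, 1.05 to 1.38, adjusted p = 0.0188 by Fisher's exact test), but the call ended when the nearby peak had to lie beyond 1 kb (1.13, adjusted p = 0.223 by Fisher's exact test). Another NANOG peak, from the same library, lay within 10 kb of 32.2% of members, 39.3% of partner-bound and 29.6% of weak peaks, given as a description.

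**Figure D5:**
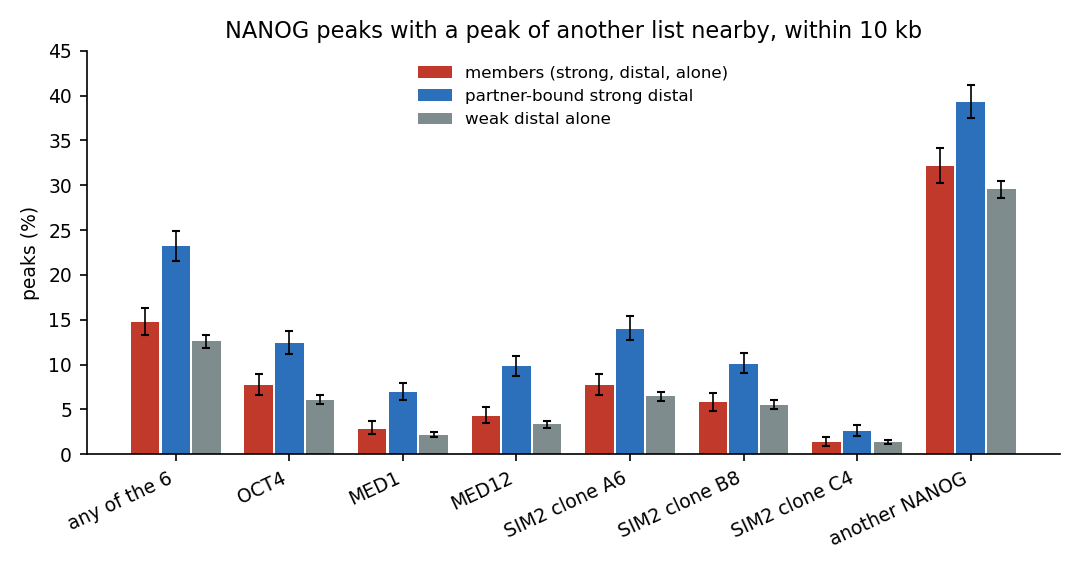
Share of NANOG peaks (y axis, percent, with 95% Wilson intervals) that have a peak of each other list beyond 100 bp and within 10 kb, or another NANOG peak within 10 kb, for the 3 classes. Members lie below the partner-bound peaks for each list, at 14.7% against 23.2% for any of the 6.

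The median distance from a member to the nearest peak centre of the 6 lists was 109 kb, close to the 115 kb of the weak peaks, and 52.4% of the members had none within 100 kb. At the other end, 80 members (3.82%) had one between 250 and 1000 bp away. The FLAG peaks of the EB3 control did not touch the members. None of the 2095 had an EB3 peak within 100 bp, which allows a share of up to 0.143%, and none had one within 10 kb. The EB3 list held only 81 peaks. No partner-bound or weak peak had one within 100 bp either, so this absence is not particular to the members. Within 10 kb, no partner-bound peak and 6 of the 8588 weak peaks had one.

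The neighbours of the members included regulators of pluripotency. A member lay within 100 kb of a start of 3597 of 22238 protein-coding genes (16.2%), a partner-bound peak of 19.5% and a weak peak of 48.8%. In a list of core pluripotency genes it was 13 of 29 (44.8%), where partner-bound peaks reached 22 (75.9%) and weak peaks 23 (79.3%). Counts are given with no test, since neighbouring genes share members. The member of highest tag count in this list was 1408 bp upstream of Tdgf1, which encodes the Nodal co-receptor CRIPTO, with 16.3 and 16.6 times the input. It stood above the others of the list, which ran from 8.5 to 13.2. The member 35060 bp upstream of Dppa3, a maternal factor marking naive cells, had 13.2. The member 62986 bp downstream of the start of Nanog itself had 11.6 and held an ESRRB pattern. The centre of a SIM2 peak of clone A6 lay 1846 bp from its own, and that of a MED12 peak 4388 bp. Dppa2 and Dppa4, neighbouring genes of early embryonic chromatin factors, had 2 members, the nearest 1460 bp upstream of Dppa2 with 11.6. Utf1, a chromatin gene of undifferentiated cells, and Tet2, which encodes an enzyme of DNA demethylation, each had 1 member of 11.6. Zfp42, known as Rex1, had 10.8 at 46904 bp upstream, Mycn 2 members of up to 10.8, and Esrrb 1 of 9.3 at 974 bp downstream of a start. The members near the remaining 3 genes were at 8.5, just at the minimum. The Tfcp2l1 and Sox1 symbols of the lists had no match in the annotation.

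Of 28 genes of LIF-STAT3, Nodal, BMP, FGF and WNT signalling, 6 (21.4%) had a member within 100 kb, near the 16.2% of all genes, while partner-bound peaks reached 17 (60.7%, against 19.5% of all genes) and weak peaks 24 (85.7%, against 48.8%). They were the FGF-dependent ETS factor gene Etv5 (17.8, at 2678 bp upstream), the FGF-ERK inhibitors Spry4 (12.4) and Spry2 (10.8), the ligands Wnt3 (10.8) and Bmp4 (10.1) and the BMP target Id1 (10.1). Of 27 lineage regulators 5 (18.5%) had one, against 4 (14.8%) for partner-bound peaks. Among them were Hoxb1 (25.6, at 9268 bp downstream), Otx2 (17.8), Gsc (13.9) and Fgf5 (11.6, at 1707 bp downstream). Of 20 housekeeping genes 4 (20%) had a member, among them Hprt at 84251 bp, Actb at 50469 bp and Rps18 at 97723 bp.

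Otx2, a homeobox gene of the formative state and the anterior brain, had the most members within 100 kb of a start, 5 in all. They had tag counts of 10.1 at 7292 bp downstream, and 13.2, 13.2, 9.3 and 17.8 at 33524, 41968, 62594 and 86905 bp upstream. Of these 5, 4 held none of the 14 patterns, and that at 62594 bp held SOX and TAATTA. The member at 7292 bp had partner peaks close to it, though beyond the 100 bp of the rule. The centres of SIM2 peaks of clones A6 and B8 lay 532 and 575 bp from its own, and that of a MED12 peak 689 bp. The other 4 had no peak of the 6 lists within 10 kb. A further 9 genes had 4 members each. The WNT receptor gene Fzd7 with its neighbour Gm973, the Polycomb cofactor gene Aebp2, the phosphodiesterase gene Pde4d, Fgd4 and the chromosome 18 cluster of Adnp2, Gm16286, Rbfa and Txnl4a made up this group, and genes of a cluster share members. The 4 members near Fzd7 had tag counts of 8.5, 12.4, 10.1 and 18.6, and those near Aebp2 of 8.5, 10.1, 18.6 and 10.1. The Aebp2 members of 10.1 had OCT4 and SIM2 peaks within 10 kb, and the Fzd7 member of 8.5 a SIM2 peak.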

How the data were processed

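Peak lists of 8 ChIP libraries were used. Reads had been aligned to mm9 by the authors (BWA), duplicates discarded, and enriched regions found per library with HOMER relative to input DNA. The normalized tag count deposited by the authors is a signal scaled to library size, the deposited total tags of the NANOG list are whole counts, the deposited focus ratio is a fraction, and the fold over the input, a ratio, with its p-value and the score were also computed by the authors' peak caller. Versions are not given in the sources used here.

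Peaks were joined as with windowBed (100 bp) and annotated with GENCODE vM1. Peak sequences came from the NCBIM37 genome. Shares of peaks were compared by Fisher's exact test, two-sided, with Benjamini-Hochberg adjustment over all patterns, over all 6-mers of a comparison or over the 30 tests of other measures. Odds ratio intervals are Woolf intervals. The members and lists were chosen with earlier results of these data known. Named were the 10 strongest members with ties, 3 peaks on either side of the minimum, the 5 genes with the most members with ties, up to 10 genes a list, 5 words a direction, 3 families and the strongest holders of each differing pattern. Word groups of A and T alone were chosen after the words were seen. Some genes that these rules name are not reported here. Intervals cover counting error only. Python 3.11.15, scipy 1.17.1, statsmodels 0.14.6 and blastn 2.17.0 were used. On simulated data, 6000 of 6000 rows were assigned as bedtools 2.31.1 did and 5 of 5 planted words were found.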

Additional observations from a re-analysis of the deposited data

How the results depend on the processing

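The number of members, 2095, became 3611 at a tag count minimum of 7, 621 at 12 and 3917 with partner peaks at 8 or more times the input, and stayed within 1.5 times under the 11 other alternatives. The patterns that differed from the partner-bound peaks, 5, became 3 at a minimum of 7, 1 at 12, 3 with stricter partner peaks, and 1 and 2 in windows of 100 and 300 bp. Those left were among the 5 except with stricter partner peaks, where 1 of the 3, the octamer, was and TAATTA and the bHLH-PAS core were not. Against the weak peaks, 4 became 2 at 12, of which 1 was among the 4, and 2 in 100 bp and without sequence copies. Of 18 alternatives against the partner-bound peaks, the ZIC-type pattern did not pass under 8, the NANOG core under 5, TEAD under 4, the octamer under 3 and the composite under 1. The 25 words that differed from the partner-bound peaks became 51 at 7, 5 at 12, 42 with a fold of 8 in place of the tag count and 2 in 100 bp. The 130 against the weak peaks became 200, 22, 233 and 86 under these, 247 with stricter partner peaks and 62 without copies.

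The odds ratio of nearby partner peaks against the partner-bound class was 0.485 to 0.636 under all 18 alternatives and always passed. Against the weak class it no longer passed with windows of 500 bp (1.14) and 1000 bp (1.1), at 12 (1.18), within 25 kb (1.07), with 21 total tags as the minimum (1.09), beyond 1 kb (1.13) and without copies (1.2, adjusted p = 0.0558 by Fisher's exact test). The intergenic and intronic odds ratios fell short once each, with stricter partner peaks (0.895 and 1.11). Against the weak peaks it turned to 1.03 at 7, 1.04 with the fold, 1.05 with stricter partner peaks and 1 with total tags. The G+C odds ratio passed at 7 (0.869), with stricter partner peaks (0.804) and within tag count groups (0.742), and ranged from 0.898 to 1.01 when a SIM2 clone was left out, the highest without clone A6. The odds ratio of copies against the partner-bound peaks turned to 1.03 at 7, 1.04 with the fold, 1.48 with stricter partner peaks (adjusted p = 0.000439 by Fisher's exact test) and 1.13 at 90% identity, and ranged from 0.903 to 1.01 when a SIM2 clone was left out, the highest without clone B8. Against the weak peaks it was 1.19 at 12 and did not pass. The composite turned to 1.01 against the partner-bound peaks with stricter partner peaks, and the SOX pattern to 0.993 against the weak peaks at 12. Of the housekeeping genes, 1 had a member within 50 kb and 0 as the nearest start, against 4. The cause of these changes was not tested. The total tag, input, 1 kb and copy alternatives were chosen after seeing the data.

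Each ChIP other than SIM2 has 1 library, so no spread between replicates stands behind a NANOG, OCT4 or Mediator peak. Absence of a partner means that no peak was called, which depends on the depth of that library. The mask of repeats planned for the sequences was not run, because the genome file has no lower-case letters. No paired analysis was possible because the groups compared are classes of peaks of 1 library.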

Other observations

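The X chromosome was noticed after the chromosome counts were seen. It held 74 members (3.53%), against 1.85% of partner-bound peaks (odds ratio 1.95, 1.35 to 2.8, adjusted p = 0.0164 over 40 tests by Fisher's exact test) and was the only one of 20 chromosomes that passed in that comparison. The difference from the weak peaks, with 2.85% on X, did not pass (odds ratio 1.25, 0.962 to 1.63, adjusted p = 0.534 by Fisher's exact test), nor did that of any other chromosome. On chromosome 14 between 70 and 110 Mb lay 56 members (2.67%), against 2.15% of partner-bound and 3.04% of weak peaks.

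Of the members, 721 (34.4%) held none of the 14 patterns, against 33.7% of partner-bound and 39.7% of weak peaks. The octamer or the composite was held by 11.7% of members, 16.5% of partner-bound and 8.92% of weak peaks, and TAATGG or TAATTA by 24.7%, 21.6% and 20.7%. Among the smaller families, the seventh held 8 members, and its strongest member reached 27.9. To it aligned 0 partner-bound and 29 weak peaks. The eighth, with 6 members, had 18 partner-bound and 22 weak peaks aligned to it. Families were built from members only.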
